A study of Mus musculus with 6 samples.

Results

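Voltage-gated calcium and sodium channels turn the depolarization of islet cells into electrical spikes and calcium entry. The genes described here are all protein-coding genes whose symbols begin with Cacna, Cacnb or Cacng, or with Scn followed by a number and an a or b. This rule uses no expression value and gave 40 of the 54556 genes in the table. Of these, 26 encode calcium channel subunits (10 α1, 4 α2δ, 4 β and 8 γ) and 14 encode sodium channel subunits (10 α and 4 β).

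RNA was sequenced from pancreatic islets of C57BL/6 mice aged 8 weeks on normal chow. The 3 control libraries came from Mettl3 flox/flox mice, and the other 3 from mice labelled beta-Mettl3-KO, whose genotype is Mettl3 flox/flox with RIP-Cre, a Cre driven by a rat insulin promoter. Mettl3 is the enzyme that puts the N6-methyladenosine mark on mRNA. Every library thus carried the floxed alleles, and there was no group with Cre alone, so the deletion and the Cre cannot be told apart. Islets hold several cell types, of which the Cre is directed to β cells. Pooling of mice is not mentioned in the labels, nor is the animal behind each library, so the p-values here cover library-to-library spread, which may be technical.

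In these channels one large protein, α1 in calcium and α in sodium channels, forms the voltage sensor and the pore. Intracellular β subunits bring calcium channel pores to the membrane and tune their gating, α2δ subunits raise their surface number, and the γ family is mixed, since several of its members are better known as AMPA receptor partners. Sodium channel β subunits are small membrane proteins that change gating and adhesion. In β cells, L-type calcium channels (Cacna1c and Cacna1d) and the P/Q-type channel (Cacna1a) supply calcium for insulin granule release, and Scn9a and Scn3a carry sodium current in mouse islets.

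RefSeq promoter windows (GRCm38.p6, 250 bases before to 50 after a transcript's start) were found for 30 of the 40 genes, with 41 windows in all. The 4 below belong to the genes with a window that had the smallest adjusted p-values in the test on reads described later, and are shown to set genes that fell (Cacna1c, Cacna1b) beside genes that rose (Cacna1i, Scn4a). Capitals mark E-boxes (CANNTG, which reads the same on both strands), the class of site bound by basic helix-loop-helix factors. No window is in the table for Scn3a, Scn3b or Cacna1a.
Cacna1c, chr6:119196360-119196659, minus strand: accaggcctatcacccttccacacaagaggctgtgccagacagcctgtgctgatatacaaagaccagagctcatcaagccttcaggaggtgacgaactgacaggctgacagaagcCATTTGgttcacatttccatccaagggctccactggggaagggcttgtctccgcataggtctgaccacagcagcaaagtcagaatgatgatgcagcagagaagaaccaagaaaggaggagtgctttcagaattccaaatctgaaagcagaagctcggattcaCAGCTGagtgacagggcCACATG
Cacna1b, chr2:24763103-24763402, minus strand: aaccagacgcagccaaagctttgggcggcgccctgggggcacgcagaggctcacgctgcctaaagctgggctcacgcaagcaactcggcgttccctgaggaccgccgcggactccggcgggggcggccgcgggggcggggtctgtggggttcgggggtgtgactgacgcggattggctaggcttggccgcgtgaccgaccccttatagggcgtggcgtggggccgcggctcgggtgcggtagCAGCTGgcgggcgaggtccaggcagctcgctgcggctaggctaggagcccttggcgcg
Cacna1i, chr15:80286988-80287287, plus strand: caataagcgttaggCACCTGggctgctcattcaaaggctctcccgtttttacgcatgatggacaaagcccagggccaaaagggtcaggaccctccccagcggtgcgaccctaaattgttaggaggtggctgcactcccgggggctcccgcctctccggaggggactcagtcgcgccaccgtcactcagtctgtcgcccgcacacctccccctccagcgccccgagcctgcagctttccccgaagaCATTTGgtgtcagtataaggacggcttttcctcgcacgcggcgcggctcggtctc
Scn4a, chr11:106349341-106349640, minus strand: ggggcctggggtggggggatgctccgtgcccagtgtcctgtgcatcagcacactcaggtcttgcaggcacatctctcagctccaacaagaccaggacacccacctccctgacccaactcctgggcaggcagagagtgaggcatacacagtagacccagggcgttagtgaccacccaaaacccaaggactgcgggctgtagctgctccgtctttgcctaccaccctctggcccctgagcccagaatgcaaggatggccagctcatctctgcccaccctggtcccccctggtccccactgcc

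The Cacna1c window, 1 of 3 for that gene and 9 bases off the annotated gene start, held 3 E-boxes and 3 CG pairs. That of Cacna1b held 1 E-box, 35 CG pairs and 3 GC boxes (GGGCGG on either strand). Of the Cacna1c windows not printed, 1 held 57 CG pairs and 6 GC boxes, and 1 held 7 CG pairs and 0 GC boxes. In the Cacna1i window there were 2 E-boxes and 23 CG pairs. The Scn4a window lies 3898 bases inside the annotated gene and held 0 E-boxes and 4 CG pairs. An E-box is common, being present in 72.3% of all 32851 windows of this length in the mouse table, and a GC box in 35.7%. The median window of the channel genes held 9 CG pairs, against 7 over all windows. Of the other motifs searched on both strands, TATAAA and the RE1 right half-site GGACAGC were in none of the 4 windows printed and in 13.6% and 6.56% of all windows. CCAAT was in the Cacna1b window and in 37.4% of all, and the cAMP response element TGACGTCA in none of the 4 and in 1.79% of all. These matches describe letters in a window and nothing about binding.

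The libraries held 16398862 to 18387313 reads each. Levels are in scaled FPKM, a read density per kilobase of gene, scaled between libraries so that the typical gene shows no change. Mettl3 itself had 3.42, 2.89 and 3.93 scaled FPKM in flox/flox replicates 1 to 3 and 4.06, 4.20 and 4.15 in the libraries labelled knockout (log2 difference 0.25 ± 0.11, limma adjusted p = 0.12). Sums over the whole gene do not show the loss of single exons, so the transcript does not check the labels. Marker lists also differed. The 7 β-cell markers tested all fell (summed 239938 to 301277 against 99259 to 106988 scaled FPKM), as did 6 of 6 acinar and 5 of 5 endothelial markers. Lymphocyte markers rose in 4 of 4 tested (summed 3.11 to 5.90 against 62.2 to 89.9), and enterocyte markers in 5 of 5. The summed enterocyte markers were at 27.2 to 30.3 in the flox/flox libraries, almost all of it Vil1, and at 59.1, 395 and 205 in labelled-knockout replicates 1 to 3. Labelled-knockout replicates 2 and 3 thus stood apart from replicate 1, and each call of a channel gene below is also given without both of them. That leaves 1 library against 3 and assumes that the lone library varies like the others. Replicate 1 is not free of such marker RNA either. Its summed lymphocyte markers were the highest of its group, at 89.9 against 62.2 and 78.1 in replicates 2 and 3. The enterocyte gene Fabp2 had 180 reads in it, against 0, 4 and 0 in the flox/flox libraries. In RNA of whole islets, fewer cells of a type and less RNA per cell cannot be told apart.

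Of the 40 genes, 15 reached 1 scaled FPKM on average and were tested with limma on log2(scaled FPKM + 0.5), adjusted over all 14497 genes tested. Scn3a and Scn3b rose, 3 genes fell, Cacna1a and Cacna1c among them, and the other 10 did not pass an adjusted p under 0.05. Of all genes tested 34.0% passed, 16.9% as higher and 17.2% as lower, so 5 of 15 is close to the background. The median log2 difference of the 15 genes was -0.19, against -0.0045 for all tested genes. The groups of libraries did not overlap for 2 genes that were higher and 6 that were lower, where over all tested genes 25.1% did not overlap as higher and 25.4% as lower, 50.5% in all.

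A pseudocount of 0.5 FPKM corresponds to many reads in long genes, and channel pores have long transcripts. A second limma fit was therefore run on recovered reads, log2(scaled reads + 2), with a mean of at least 10 scaled reads, adjusted over 17679 genes. It tested 29 of the 40 genes and called 13, 8 higher and 5 lower. In that fit 35.2% of all genes passed, 19.4% higher and 15.8% lower. The 8 that rose were Scn3a, Scn3b, Scn4a, Scn7a, Scn2a, Scn2b, Cacna1i and Cacna1e, of which Scn4a passed the filter only through the group where it was high, and the 5 that fell included Cacna1a, Cacna1c, Cacna1b and Scn8a. Scaling each library to its own total instead moved the median of all genes up by 0.36 (log2) and the background to 52.4% higher and 4.87% lower. Under it 5 channel genes rose in the FPKM fit (Scn3a, Scn3b, Cacnb1, Cacnb3 and Scn9a) and 0 fell, so every fall below is relative to the typical gene.

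**Figure D1:**
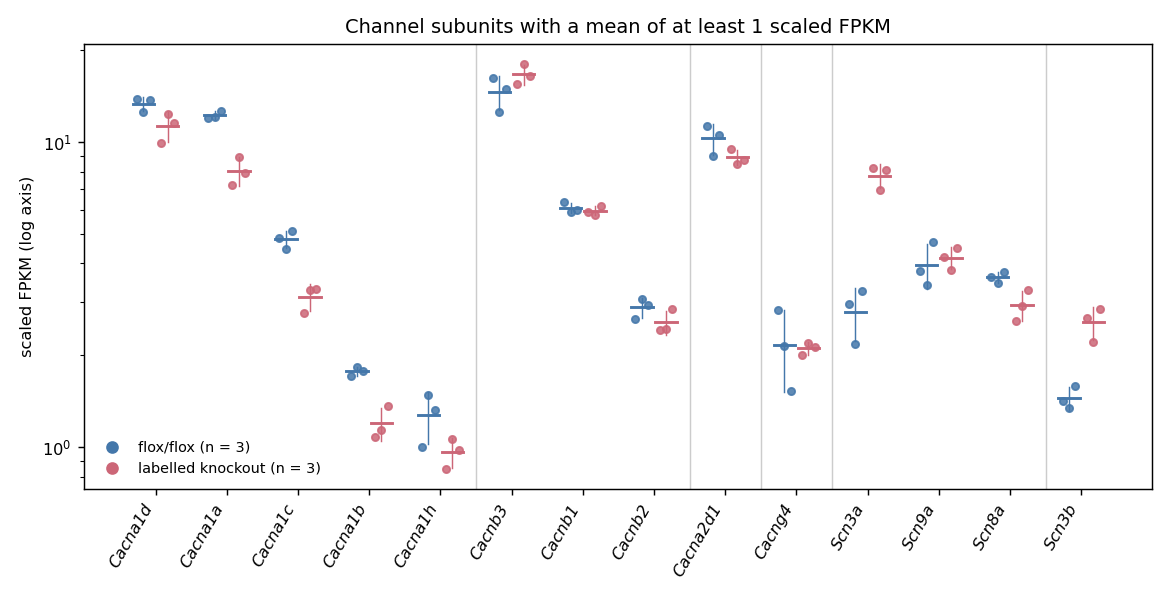
Scaled FPKM (log axis) of 14 channel subunits with a mean of at least 1, in 3 flox/flox (blue) and 3 labelled-knockout (red) libraries. Points are libraries, horizontal lines means and vertical bars SD; grey lines separate calcium α1, β, α2δ and γ and sodium α and β subunits. Scn3a and Scn3b sit higher and Cacna1a and Cacna1c lower in the labelled-knockout libraries, with no overlap.

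**Figure D2:**
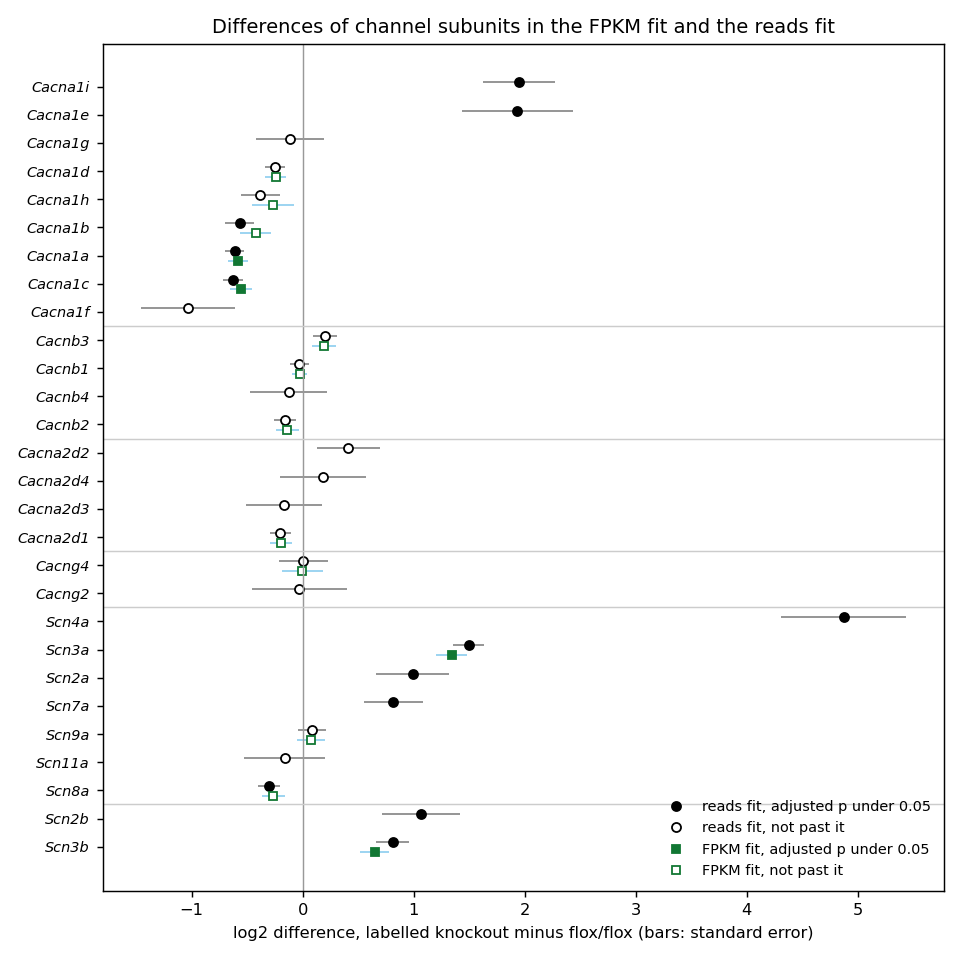
Log2 differences (labelled knockout minus flox/flox, bars SE) of 28 channel subunits tested on reads (circles) and the 14 of them tested on FPKM (green squares). Filled symbols have an adjusted p under 0.05, and grey lines separate the subunit classes. Scn4a, which passed the filter only through the labelled-knockout libraries, lies farthest to the right at 4.87, and the called calcium channel falls lie between -0.56 and -0.63.

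Among the calcium channel pores, Cacna1d and Cacna1a were the most abundant per length in the flox/flox libraries (13.3 ± 0.693 and 12.2 ± 0.356 scaled FPKM, SD, n = 3 each), followed by Cacna1c at 4.80 ± 0.317. The 5 tested pore genes all had negative differences, and 2 of them passed. Cacna1a, the P/Q-type pore (ENSMUSG00000034656, chromosome 8, 84388440 to 84640246, plus strand, GRCm38), had 11.98, 12.1 and 12.6 scaled FPKM in flox/flox replicates 1 to 3. The libraries labelled knockout had 7.21, 8.95 and 7.94, so each lay below every flox/flox library. This gave a log2 difference of -0.58 ± 0.09 (SE, limma adjusted p = 0.00392), a mean 1.52 times higher in the flox/flox group. It was -0.72 without labelled-knockout replicates 2 and 3 (adjusted p = 0.032).

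Cacna1c, an L-type pore (ENSMUSG00000051331, chromosome 6, 118587240 to 119196418, minus strand), stood at 4.84, 4.47 and 5.10 scaled FPKM in the flox/flox libraries. It stood at 2.75, 3.27 and 3.30 in those labelled knockout, again with no overlap. The log2 difference was -0.56 ± 0.10 (limma adjusted p = 0.00657), and without labelled-knockout replicates 2 and 3 it was -0.70 and no longer passed (adjusted p = 0.0582). Cacna1d, the L-type pore with a lower activation threshold, had 13.8, 12.5 and 13.7 against 9.89, 12.3 and 11.5. Its groups also did not overlap, by a margin of 12.5 to 12.3, but the difference of -0.24 ± 0.09 did not pass (adjusted p = 0.0928).

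Cacna1b, the N-type pore, was at 1.71, 1.83 and 1.77 scaled FPKM in the flox/flox and 1.08, 1.14 and 1.37 in the labelled-knockout libraries. Its difference was -0.42 ± 0.14 on FPKM (adjusted p = 0.0557) and -0.57 ± 0.13 on reads, where it passed (limma adjusted p = 0.00721), also without labelled-knockout replicates 2 and 3 (adjusted p = 0.0459). Cacna1h, a T-type pore, had 1.00, 1.48 and 1.32 against 0.850, 1.06 and 0.978. Those groups overlapped, and the difference of -0.27 ± 0.19 did not pass (adjusted p = 0.32).

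A pair of pores far below these rose in the reads fit. Cacna1i, another T-type pore, had 0.101, 0.0983 and 0.0683 scaled FPKM (15, 14 and 10 reads) in flox/flox replicates 1 to 3, against 0.404, 0.270 and 0.474 (83, 52 and 97 reads) in the other group. The reads fit gave a log2 difference of 1.95 ± 0.32 (limma adjusted p = 0.00147). With labelled-knockout replicate 1 alone in its group it was 2.07 (adjusted p = 0.0449). Cacna1e, the R-type pore, had 0.0524, 0.0110 and 0.0587 against 0.129, 0.142 and 0.155. Its difference of 1.93 ± 0.50 passed (limma adjusted p = 0.0143) but did not without labelled-knockout replicate 3 (adjusted p = 0.058) or without replicates 2 and 3 (1.81, adjusted p = 0.245). Counts for the same FPKM are larger in the labelled-knockout libraries, whose read scaling factors were 1.13 to 1.20 against 0.832 to 0.871.

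The 10 pore genes summed to 34.0 ± 1.04 scaled FPKM (flox/flox) and 25.4 ± 2.51 (labelled knockout), with no overlap. Shares within a library do not depend on how libraries are scaled to each other. Cacna1d made up 39.2% ± 1.46 of that sum in the flox/flox group and 44.2% ± 0.583 in the other. Cacna1a went from 36.0% ± 0.581 to 31.6% ± 1.09 and Cacna1c from 14.1% ± 0.533 to 12.2% ± 0.383, each without overlap, and Cacna1b (5.21% and 4.72%) and Cacna1h (3.73% and 3.79%) overlapped. The ratio of Cacna1c to Cacna1d was 0.360 ± 0.0112 and 0.277 ± 0.0107, and that of Cacna1a to Cacna1d 0.919 ± 0.0485 and 0.715 ± 0.0222. Shares, sums and ratios are descriptions with no test.

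Some cell type markers fell as well. Cacna1a fell less in its mean than each of the 7 β-cell markers. Its mean was 1.52 times higher in the flox/flox group, against 1.61 (Nkx6-1) to 6.72 times (Mafa) for the markers. Per unit of 3 of the 7 β-cell markers (Ucn3, Nkx6-1 and G6pc2) the groups overlapped, as with Ucn3, a peptide of mature β cells, at 0.0352, 0.0381 and 0.0380 against 0.0357, 0.0498 and 0.0422 in the labelled-knockout libraries. Per unit of the other 4 it was higher in every library labelled knockout, as with the glucose transporter Slc2a2, at 0.0906, 0.0940 and 0.0950 against 0.276, 0.330 and 0.282. Cacna1c per unit of endothelial markers likewise overlapped for 3 of 5, as with the adhesion molecule Pecam1 at 0.207, 0.145 and 0.196 against 0.159, 0.154 and 0.182. It was higher in every library labelled knockout per unit of Kdr and of Esm1, the latter at 0.0265, 0.0269 and 0.0291 against 0.0406, 0.0420 and 0.0496. The 5 endothelial markers summed to 530 to 536 and 266 to 304 scaled FPKM. Of the 4 stellate and pericyte markers, 2 fell, Rgs5 from 95.7 to 49.4 and Pdgfrb from 8.07 to 5.47 scaled FPKM. The collagens Col1a1 and Col3a1 rose. Of 2 smooth muscle markers tested on FPKM, Myh11 (4.73 and 3.12) and Des, neither was called, though Myh11 was lower on reads. Cacna1c was not set per unit of these or of β-cell markers. The part of any of these cell types in the falls of Cacna1a and Cacna1c was not tested. Strandedness is not given in the sources used here, so reads of opposite-strand exons cannot be separated. Chdh covers 589 exonic bases of Cacna1d (4.67%), and the antisense Gm16183 covers 435 of Cacna1a (3.81%). Chdh had means of 1.26 (flox/flox) and 2.72 (labelled knockout) scaled FPKM, and Gm16183 had 3.08 and 2.37. The part of these overlaps in the Cacna1d and Cacna1a values was not tested.

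Accessory calcium channel subunits gave no call. Of the 4 β genes, Cacnb3, which also restrains calcium release in β cells, was the most abundant of all 40 channel genes. It had 16.2, 12.5 and 14.97 scaled FPKM in the flox/flox and 15.5, 18.0 and 16.5 in the labelled-knockout libraries. These overlapped, and the log2 difference was 0.19 ± 0.11 (limma adjusted p = 0.211). Cacnb1, the β subunit of skeletal muscle channels, had 6.33, 5.90 and 5.99 against 5.90, 5.77 and 6.16 (-0.03 ± 0.07, adjusted p = 0.77). Cacnb2, the main cardiac β subunit, had 2.63, 3.05 and 2.93 against 2.43, 2.44 and 2.83 (-0.14 ± 0.10, adjusted p = 0.34).

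Within the β class Cacnb3 held 61.2% ± 2.99 of the summed FPKM in the flox/flox and 65.7% ± 2.09 in the labelled-knockout libraries. The class sum overlapped at 23.7 ± 1.90 and 25.4 ± 1.27 scaled FPKM. Cacna1a per unit of Cacnb3 was 0.741, 0.966 and 0.845 against 0.465, 0.498 and 0.481, with no overlap.

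The α2δ subunits were nearly all Cacna2d1, the receptor of gabapentin, at 92.3% and 89.4% of their class. It had 11.3, 8.97 and 10.6 scaled FPKM in the flox/flox and 9.47, 8.48 and 8.73 in the labelled-knockout libraries, which overlapped (-0.19 ± 0.10, limma adjusted p = 0.174). Without flox/flox replicate 2, its lowest control, it passed (-0.29, adjusted p = 0.0493). Cacna2d2, below 1 scaled FPKM, had 0.566, 0.584 and 0.424 against 0.893, 0.444 and 0.843. Labelled-knockout replicate 2 is the low one of its group, and the reads fit gave 0.41 ± 0.29 (adjusted p = 0.301), and 0.73 without that library (adjusted p = 0.0433).

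Of the 8 γ genes Cacng4 alone reached 1 scaled FPKM. It had 2.81, 2.15 and 1.53 in the flox/flox and 2.00, 2.19 and 2.13 in the labelled-knockout libraries. The flox/flox libraries lay on both sides of the others, and the difference was -0.0023 ± 0.19 (limma adjusted p = 0.994). Cacng6, Cacng7 and Cacng8 had no read in any library, where a count of 0 allows up to 3 reads.

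Scn3a was the tested sodium channel pore that rose, and it became the most abundant one. This gene (ENSMUSG00000057182, chromosome 2, 65457118 to 65567627, minus strand), known for high expression in the developing brain, was at 2.93, 2.17 and 3.24 scaled FPKM in the flox/flox libraries. In the libraries labelled knockout it was at 8.20, 6.97 and 8.10, so the lowest of them was above 2 times the highest flox/flox value. The mean was 2.79 times higher, with a log2 difference of 1.34 ± 0.14 (limma adjusted p = 0.00105). Leaving out any 1 library gave 1.20 to 1.44 with adjusted p of 0.00198 to 0.00814. With all 6 libraries it was 1.49 on reads and 1.70 with own-total scaling (adjusted p = 5.95e-05 and 0.000239). Without labelled-knockout replicates 2 and 3 the FPKM fit gave 1.43 and the call was lost (adjusted p = 0.0524).

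Scn9a, a pore of sensory neurons that is also prominent in β cells, had 3.79, 3.39 and 4.71 scaled FPKM in the flox/flox and 4.21, 3.80 and 4.51 in the labelled-knockout libraries. The groups overlapped and the difference was 0.07 ± 0.13 (limma adjusted p = 0.685). Scn8a, a pore of axon initial segments, had 3.60, 3.44 and 3.76 against 2.60, 2.91 and 3.27. These did not overlap, and the difference of -0.26 ± 0.10 missed the threshold on FPKM (adjusted p = 0.084) and passed on reads (-0.30 ± 0.10, adjusted p = 0.0335). On reads it missed the threshold when replicate 1 of either group, replicate 3 of flox/flox or replicate 2 of labelled knockout was left out (adjusted p = 0.0669 to 0.117) but passed when both replicates 2 and 3 of labelled knockout were (-0.46, adjusted p = 0.0444). Its sign turned with own-total scaling (0.10, adjusted p = 0.429).

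Per length, the flox/flox libraries had Scn9a and Scn8a close together at the top of the sodium pores (35.3% ± 1.81 and 32.4% ± 2.59 of the summed FPKM) followed by Scn3a at 24.7% ± 2.28. In the libraries labelled knockout Scn3a was first at 44.7% ± 0.624, followed by Scn9a at 24.0% ± 0.735 and Scn8a at 16.9% ± 2.31. None of these 3 shares overlapped between groups. The ratio of Scn3a to Scn9a, which sit near each other on chromosome 2, was 0.774, 0.640 and 0.687 in the flox/flox and 1.95, 1.83 and 1.80 in the labelled-knockout libraries. The summed sodium pores were at 11.2 ± 1.39 and 17.4 ± 1.59 scaled FPKM, again with no overlap. Sodium channel pores are close paralogs, so reads in their shared stretches may be split unevenly between them.

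Scn3a is also active in α cells, whose 5 markers gave 1 rise (Ttr) and 4 without a call. Scn3a per 1000 units of Gcg, the glucagon gene of α cells, was 0.330, 0.386 and 0.422 in the flox/flox and 0.820, 1.10 and 1.01 in the labelled-knockout libraries, with no overlap. Scn3b per 1000 units of Gcg was 0.159, 0.239 and 0.207 against 0.265, 0.347 and 0.352.

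**Figure D3:**
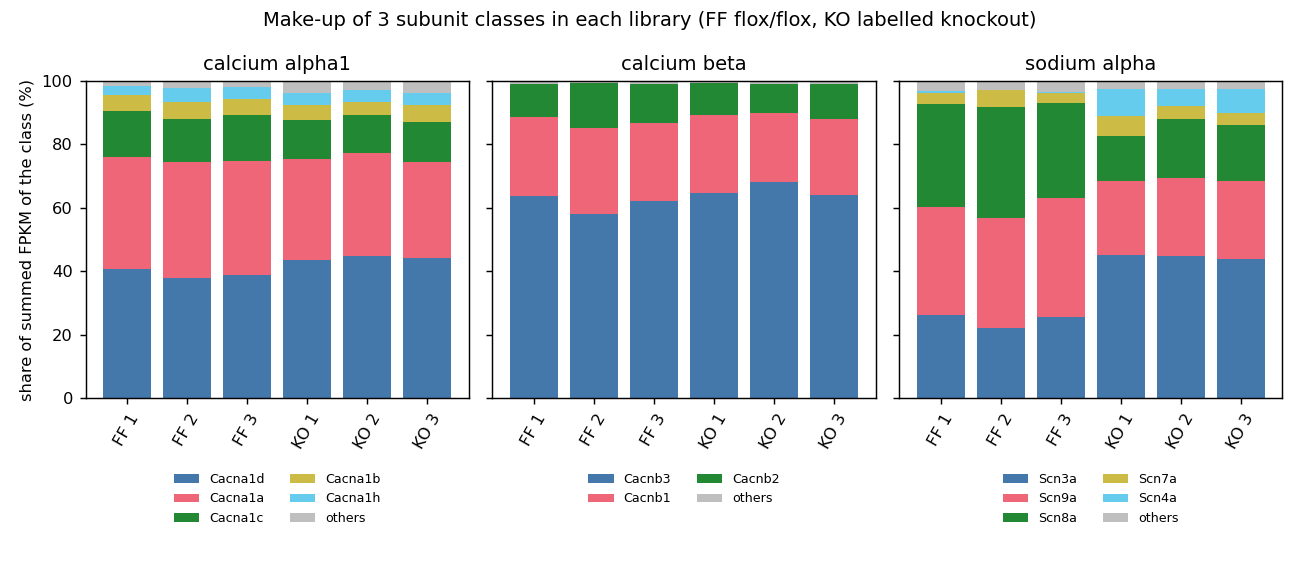
Share (%) of each gene in the summed FPKM of its class in every library (FF flox/flox, KO labelled knockout), for calcium α1, calcium β and sodium α subunits. Grey bars pool genes with a mean share below 2%. Scn3a takes a mean of 24.7% (FF) and 44.7% (KO) of the sodium pores, while Cacna1d takes 39.2% and 44.2% of the calcium pores.

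Scn4a, the pore of skeletal muscle (ENSMUSG00000001027, chromosome 11, 106318592 to 106353288, minus strand), was nearly absent from the flox/flox libraries. It had 7, 0 and 4 reads there (0.0657, 0 and 0.0383 scaled FPKM) and 230, 113 and 200 reads in those labelled knockout (1.57, 0.821 and 1.37). Its mean over all libraries, 0.644, was the highest below the FPKM filter, next in rank to Cacna1h at 1.12. The reads fit gave 4.87 ± 0.56 (limma adjusted p = 0.000187), and 5.25 when labelled-knockout replicate 1 stood alone (adjusted p = 0.0281). With mean scaled reads of 4.24 and 153.2 in the groups, it passed the minimum of 10 only through the libraries labelled knockout, so it had to differ, and these p-values are given as a description.

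The gene next to Scn4a on the same strand, 3829 bases beyond its annotated end, is Cd79b, which encodes part of the B-cell receptor. Cd79b had 1, 3 and 3 reads in the flox/flox libraries and 838, 504 and 736 in those labelled knockout, so both genes were highest in replicate 1 and lowest in replicate 2 of that group. Farther along, Gh, the growth hormone gene, had 0, 0 and 0 against 5, 2 and 7 reads. On the other side Prr29 had 4, 5 and 3 against 10, 3 and 14, and Icam2 had 245, 311 and 227 against 293, 241 and 296. Cd79b is 1 of 6 lymphocyte markers listed, and all 6 passed as higher on reads. Cd3e was at 0 in 2 of the 3 flox/flox libraries. The part of lymphocyte RNA in the Scn4a reads was not tested.

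Scn7a, a sodium-sensing channel of glia, and Scn2a, a pore of central axons, were below the filter of the FPKM fit and passed in the reads fit. Scn7a had 0.378, 0.528 and 0.431 scaled FPKM in the flox/flox and 1.12, 0.627 and 0.703 in the labelled-knockout libraries, with 42 to 56 and 90 to 171 reads. Its difference was 0.82 ± 0.26 (limma adjusted p = 0.0356), which missed the threshold in 4 of the 6 fits with 1 library left out, those without replicates 1 or 3 of either group (adjusted p = 0.0725 to 0.133), or when labelled-knockout replicates 2 and 3 were both left out (1.31, adjusted p = 0.0641). The 5 Schwann and glial markers summed to 7.43 to 8.03 and 5.17 to 6.998 scaled FPKM, the other direction from Scn7a.

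Scn2a had 23, 16 and 18 reads in the flox/flox and 62, 35 and 71 in the labelled-knockout libraries, a difference of 0.99 ± 0.33 after scaling (limma adjusted p = 0.0407). Leaving out any 1 library other than labelled-knockout replicate 2 ended that call (adjusted p = 0.0524 to 0.177), and so did leaving out replicates 2 and 3 of that group together (adjusted p = 0.141). Every labelled-knockout library was above every flox/flox library in Scn2a reads.

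Among the sodium channel β subunits, Scn3b (ENSMUSG00000049281, chromosome 9, 40269217 to 40291618, plus strand), which is prominent in brain, had 1.42, 1.34 and 1.59 scaled FPKM in the flox/flox and 2.65, 2.21 and 2.83 in the labelled-knockout libraries. The groups did not overlap, and the log2 difference was 0.65 ± 0.13 (limma adjusted p = 0.0107). Without labelled-knockout replicate 3 it was 0.59 (adjusted p = 0.0563) and without replicates 2 and 3 it was 0.70 (adjusted p = 0.0842). Scn2b, a β subunit linked to the pore by a disulfide bond, had 10, 9 and 17 against 34, 35 and 39 reads. Its difference on reads was 1.07 ± 0.35 (adjusted p = 0.0402). It was lost without any 1 library other than flox/flox replicate 3 (adjusted p = 0.0693 to 0.138), or when labelled-knockout replicates 2 and 3 were both left out (0.97, adjusted p = 0.291).

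**Figure D4:**
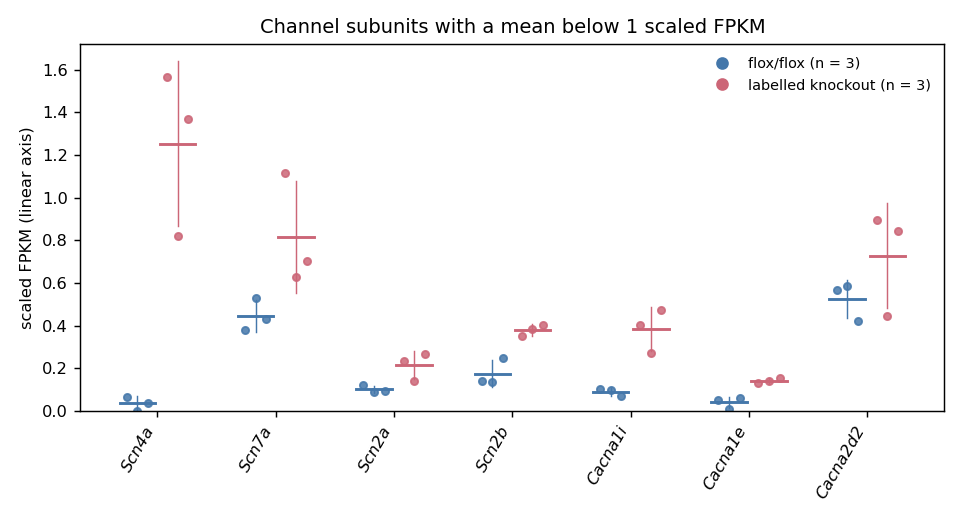
Scaled FPKM (linear axis from 0) of the 7 channel subunits below the filter that the text names, in 3 flox/flox (blue) and 3 labelled-knockout (red) libraries. Points are libraries, horizontal lines means and vertical bars SD. Scn4a is near 0 in the flox/flox libraries and at 0.821 to 1.57 in the others. Cacna2d2 is the only one of the 7 not called on reads and the only one whose groups overlap. The others were named because they were called, so their lack of overlap was nearly fixed.

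In all, 25 of the 40 genes were below 1 scaled FPKM, and 7 of these are described above. Of the other 18, 7 were tested on reads, with log2 differences of -1.03 to 0.18 and a lowest adjusted p of 0.0874. These were the pores Cacna1g, Cacna1f and Scn11a and the accessory subunits Cacna2d3, Cacna2d4, Cacnb4 and Cacng2. The lowest of the 7 was Cacna1f, an L-type pore of the retina. The remaining 11 had under 10 scaled reads on average and at most 17 reads in a library. They include Cacna1s, the skeletal muscle L-type pore, Scn10a, a pore of sensory neurons, Scn1a and Scn4b. No library had any of the 18 above 0.372 scaled FPKM.

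Further genes were listed in 4 groups, counted together below as partner genes. These were calcium channel partners, sodium channel partners, the NALCN leak channel complex, and calcium pumps, exchangers and release channels. Genes of the latter groups move ions themselves and need not bind the channels above. Of 28 calcium channel partners, 21 were tested, with 2 rises and 3 falls, where 34.0% of all tested genes passed (16.9% higher, 17.2% lower). Cabp1, a calmodulin-like calcium sensor that binds L-type and P/Q-type pores, fell from 7.21 ± 0.195 to 3.42 ± 0.153 scaled FPKM (-0.98 ± 0.07, limma adjusted p = 0.000279). Reep2, an endoplasmic reticulum protein, fell from 15.3 ± 0.662 to 7.61 ± 0.636 (-0.97 ± 0.08). Camk2g, a calcium-dependent kinase subunit and the fifth call, fell from 6.42 ± 0.496 to 4.88 ± 0.360. Rimbp2, which ties calcium channels to release sites, rose from 60.8 ± 0.946 to 89.6 ± 10.1 (0.55 ± 0.09), and the calcium-binding protein Sri from 11.2 ± 0.646 to 14.7 ± 0.474 (0.38 ± 0.07). Without labelled-knockout replicates 2 and 3 Cabp1 and Reep2 passed and Rimbp2 and Sri did not (adjusted p = 0.0596 and 0.0977). The inhibitory GTPases Rem2 and Gem were not called (adjusted p = 0.102 and 0.318).

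Among 18 sodium channel partners 13 were tested, with 3 rises and 2 falls, against the same 34.0%. Fgf12, an intracellular FGF-family protein that binds sodium channel tails and alters their inactivation, had 10.2, 6.26 and 9.38 scaled FPKM in the flox/flox and 29.2, 26.3 and 28.9 in the labelled-knockout libraries. Like Scn3a and Scn3b, it was higher in all 3 libraries labelled knockout than in any flox/flox library (1.68 ± 0.17, limma adjusted p = 0.000963). Without labelled-knockout replicates 2 and 3 it was 1.74 (adjusted p = 0.0568). Mapk8ip2, a scaffold that binds such FGF proteins, rose by 0.41 ± 0.09, a call lost without labelled-knockout replicate 3 (adjusted p = 0.0572). Nedd4l, a ubiquitin ligase acting on sodium channels, rose from 3.31 ± 0.0837 to 4.18 ± 0.0451.

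Sptbn4, the spectrin that anchors sodium channels at axon initial segments, fell from 23.3 ± 1.38 to 12.7 ± 1.12 scaled FPKM (-0.85 ± 0.08, limma adjusted p = 0.000924). Tspan13, better known as a partner of N-type calcium channels than of sodium channels, went from 92.1 ± 5.0 to 72.2 ± 5.10 (-0.35 ± 0.08). That fall was lost without labelled-knockout replicate 3 (adjusted p = 0.0734), and the sign turned with own-total scaling (0.05). The NALCN complex carries a background sodium leak. Against the same 34.0%, 2 of its 4 tested genes passed: Unc80 rose by 0.47 ± 0.09 and Fam155a by 0.55 ± 0.12, the latter not without labelled-knockout replicate 3 (adjusted p = 0.0643), while the pore Nalcn was at 2.49 and 2.69 scaled FPKM and was not called (adjusted p = 0.53).

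Of 22 tested genes that move calcium between compartments or out of the cell, 8 rose and 4 fell, against 16.9% and 17.2% of all tested genes (34.0% together). Slc8a1, the sodium-calcium exchanger, had 3.85, 4.62 and 3.90 scaled FPKM in the flox/flox and 11.1, 8.85 and 11.2 in the labelled-knockout libraries (1.23 ± 0.12, limma adjusted p = 0.000765). Orai2, a store-operated calcium channel, rose from 2.69 ± 0.199 to 5.24 ± 0.453 (0.85 ± 0.09), and Itpr1, a calcium release channel of the endoplasmic reticulum, from 4.79 ± 0.301 to 8.37 ± 0.443 (0.75 ± 0.08). The 3 rises passed also without labelled-knockout replicates 2 and 3 (adjusted p = 0.03 to 0.048). Atp2a3, a pump that refills the endoplasmic reticulum, fell from 189.8 ± 6.29 to 113.7 ± 5.04 (-0.74 ± 0.07). Over the 22 genes the median log2 difference was 0.25, against -0.0045 for all tested genes.

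**Figure D5:**
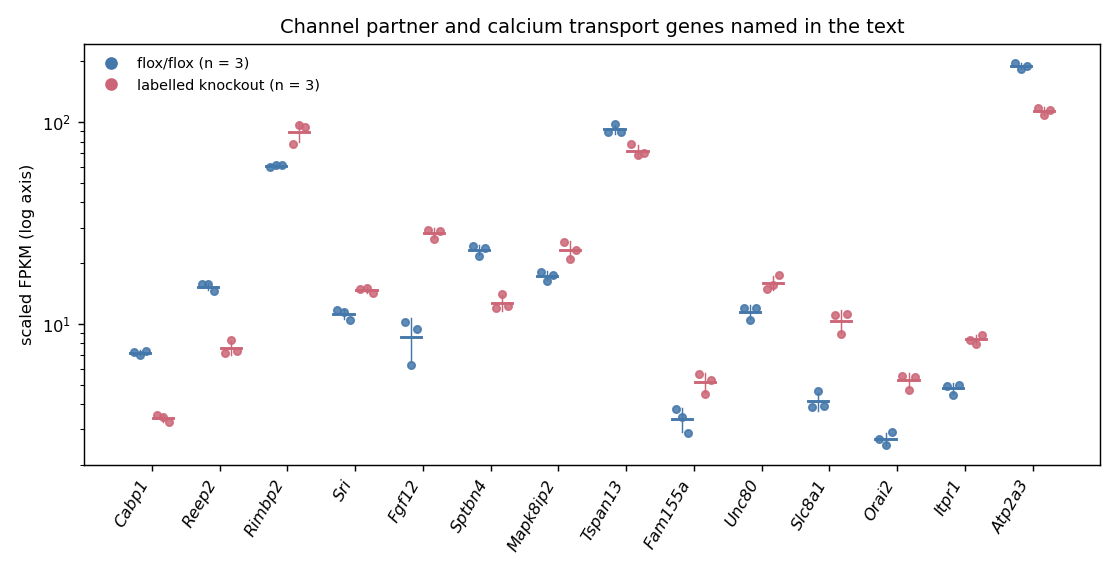
Scaled FPKM (log axis) of the 14 partner and calcium transport genes with the largest called differences of their lists, in 3 flox/flox (blue) and 3 labelled-knockout (red) libraries. Points are libraries, horizontal lines means and vertical bars SD. Fgf12 shows the largest rise. Groups do not overlap for any of the 14, which was nearly fixed by choosing called genes. Over all tested genes 50.5% did not overlap.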

How the data were processed

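The submitters' processing notes list GRCm38 patch 6 and the tools DESeq2 1.16.1, featureCounts 1.5.0-p3 and HISAT2 2.0.5. Their settings and the strandedness were not given. The authors deposited FPKM for 54556 genes, with coordinates and lengths per the file headers. Multiplied by gene length, these values were whole multiples of a fixed unit in every library (100% within 0.1 of a whole number), and the multiples were taken as reads. Median-of-ratios scaling, which the authors' FPKM turned out to hold, was kept. A count of 0 allows up to 3 reads, for counting error only.

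Tests were made in limma 3.58.1 (R 4.3.3, eBayes with trend), two-sided, on log2(scaled FPKM + 0.5) where the mean was at least 1, and on log2(scaled reads + 2) for a mean of at least 10. P-values were Benjamini-Hochberg adjusted over all genes tested, with a threshold of 0.05. The FPKM scale understates changes of low genes. The scripts were tested on simulated data. The alternatives tried were other pseudocounts, filters and scalings, quantile normalization, a replicate block and left-out libraries. The fits on reads other than the first were added after the data were seen.

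Channel genes averaging at least 1 scaled FPKM are otherwise all named, as are lower ones with at least 100 reads on average in a group or called on reads, and up to 4 called genes per partner list with the largest differences. Some genes of the set enter the counts but are not reported here. Camk2g, Nedd4l, Rem2, Gem, Nalcn and the low genes beyond that rule were named after their values were seen. The channel genes and all lists were chosen with earlier results of these data known. Fam155b had no row and Mcub 2 rows, and both were left out of their lists.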

Additional observations from a re-analysis of the deposited data

How the results depend on the processing

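Scn3a kept its rise past the threshold in 16 of 17 alternatives, Cacna1a its fall in 16 of 17 and Cacna1c in 14 of 16. Calls followed the filter and the libraries used. Genes called over the whole table went from 4935 to 3090 when the filter was 5 FPKM, 8345 with own-total scaling, 2710 to 4219 without 1 library, and 1105 without labelled-knockout replicates 2 and 3 together. Channel subunits called went from 5 to 2 with the filter at 5 FPKM, 13 on recovered reads, 3 to 6 without 1 library and 1 without both replicates. The filter at 5 FPKM tests fewer genes, and leaving out libraries uses fewer samples; the cause of the other shifts was not tested. The higher ones went from 2 to 4 with no filter, 1 with the filter at 5 FPKM, 5 with own-total scaling, 8 on recovered reads, 1 to 2 without 1 library and 0 without both replicates. The lower ones went from 3 to 1 at 5 FPKM, 0 with own-total scaling, 5 with quantile normalization, 5 on recovered reads, 2 to 4 without 1 library and 1 without both replicates. Partner genes called went from 24 to 45 with own-total scaling (40 higher, 5 lower), 15 to 24 without 1 library (10 to 16 higher, 5 to 9 lower) and 8 without both replicates (3 higher, 5 lower). On recovered reads, the 13 calls went to 9 to 13 without 1 library (4 to 8 higher, 3 to 7 lower), 8 without both replicates (3 higher) and 12 with own-total scaling (12 higher, 0 lower).

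Own-total scaling reversed the log2 difference of Cacna1d (0.15), Cacna1h (0.012), Cacna2d1 (0.19), Cacnb1 (0.35, limma adjusted p = 0.00513), Cacnb2 (0.20), Cacng4 (0.33), Scn8a (0.088, and 0.10 on reads) and Tspan13 (0.053), and took the calls of Cacna1a and Cacna1c (limma adjusted p = 0.126 and 0.146). Its shift of all genes by 0.36 is part of each value. Cacng4, near 0 throughout, turned positive with a pseudocount of 0.1 (0.0034), TMM scaling (0.010) and reads (0.0049), and ranged from -0.19 to 0.17 without 1 library. Scn9a turned to -0.0017 with quantile normalization and to between -0.024 and 0.19 without 1 library. The cause of these turns was not tested.

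Same-numbered libraries of the groups deviated together only weakly (r = 0.0811, 0.0751 and 0.0423 across genes), so the numbers were not taken as pairs, although each library correlated best with its own number. With the replicate block 4659 genes, 5 channel subunits (2 higher, 3 lower) and 23 partner genes were called, and 13 channel subunits on reads (7 higher, 6 lower). Scn2b then missed the threshold on reads (limma adjusted p = 0.052). Low counts limit the genes under 1 FPKM most: Scn2a, Scn2b and Scn7a had 9 to 56 reads per flox/flox library.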

Other observations

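The letters GGACT, a common form of the site at which the Mettl3 complex methylates mRNA, were counted in the longest protein-coding transcript of each gene (GENCODE models of GRCm38). The 40 channel genes had a median of 1.08 per kb, and the 15 of them tested on FPKM 1.01. Over 11863 genes of the table that were tested on FPKM the median was 1.05. The 8 channel genes higher on reads had a median of 1.00 and the 5 lower a median of 1.01. Cacnb3, the most abundant channel gene, had 3.29 per kb and Cacng1 none, while Scn3a had 1.05. Methylation itself was not measured in these libraries, and a count of letters does not show that a site is used.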
